A study of Mus musculus with 6 samples.

Results

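The mRNAs described here encode the enzymes that make cholesterol and fatty acids, together with the proteins that switch these enzymes on. They comprised 30 of the 18437 protein-coding mRNAs measured by Ribo-seq, in which the stretches of mRNA covered by translating ribosomes are sequenced, and were listed by gene symbol. No measured value enters that list, although it was drawn up with earlier results of these data known. Of the members, 18 are sterol enzymes that lead from acetyl-CoA to cholesterol, 5 are regulators, 1 is a sterol carrier, and 6 make fatty acids. Ribo-seq was performed on WT C57BL/6J mice at 4 weeks of age without treatment, with 1 library labelled for each of heart, lung, small intestine, colon, kidney and brain. The genotype, strain and age were the same in all 6 libraries, and the labels do not give the sex or how many animals went into a library. The other samples of the study, which are macrophages, were not analysed here.

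Each deposited value is a ribosome density in reads per kilobase of coding sequence (CDS), scaled to the reads of the library (RPKM). Because RPKM is scaled by CDS length, it can be set side by side between genes as well as between libraries. The product of RPKM and CDS length was a whole number of reads, and between 4504853 and 10635031 reads on CDSs were recovered per library. With 1 library per label there was no replicate error, so no test between libraries was made. All intervals are 95% intervals of counting error only, since reads carry no molecular identifiers here. The mRNA of Kri1 took between 0.400% of the reads in the library labelled lung and 22.1% in "kidney", which lowers the RPKM of every other mRNA in a library in proportion. RPKM rises with the amount of an mRNA as well as with the ribosomes on each copy, and the values come from whole tissue, so that fewer cells of a type and less RNA or less translation per cell cannot be told apart.

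Tissue markers went with the label for 2 libraries and against it for 4. Heart markers peaked in the library labelled heart, and lung markers in that labelled lung. The library labelled brain held the highest small intestine markers, with 27671 RPKM summed over Apoa4, Fabp2 and Lct. That labelled small intestine held the highest brain markers, with 3049 RPKM summed over Snap25, Syt1 and Gfap. Kidney markers were highest in the library labelled colon, and colon markers in "kidney". Libraries are therefore named by their label throughout, as the library labelled heart or as "heart" in quotation marks, and a value given for such a library is not offered as a value of that tissue.

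Cholesterol is built from acetyl-CoA in a long chain of reactions. The first enzymes make mevalonate and join its products into farnesyl diphosphate, the branch point to other isoprenoids, and the later enzymes make squalene, close it into the ring of lanosterol, and trim lanosterol to cholesterol. Srebf1 and Srebf2 encode the transcription factors SREBP-1 and SREBP-2, which are held in the membrane of the endoplasmic reticulum by Scap and the Insig proteins while sterols are plentiful, and which enter the nucleus and raise transcription of these enzymes when sterols are short. SREBP-2 acts mainly on sterol genes, and the SREBP-1c form of SREBP-1 acts mainly on fatty acid genes.

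SREBPs bind sterol regulatory elements, often near sites of the factor NF-Y, so the promoters of members were read for these letters. Promoters from RefSeq (GRCm38.p6), from 250 bases before to 50 after the start of transcription, were found for 24 of the 30 members, all but Fdps, Fdft1, Sqle, Stard4, Scd1 and Scd2. On either strand, the element TCACNCCAC stood in 1 member, Hmgcs1, and in 1.48% of the 9806 promoters of mRNAs tested. The NF-Y letters CCAAT stood in 20 of the 24 members, among them 14 of 15 sterol enzymes, and in 42.1% of promoters of mRNAs tested. GGGCGG, the GC box, stood in 20 of the 24 members and in 67.1% of those promoters. The E-box CACGTG stood in 5 of the 24 members and in 11.4%. None of these 4 sets of letters contains another, but neighbouring matches can share bases at their ends. The Hmgcs1 element and the CCAAT sites of 4 enzymes with high density are shown on the strand of the gene, with the motif in capitals and ATTGG as CCAAT read on the opposite strand. Positions are counted from the start of transcription, whose first base is 0.
Hmgcs1, sterol regulatory element, bases -137 to -129, within chr13:119690204-119690232 (+): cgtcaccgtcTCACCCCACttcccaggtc
Cyp51, bases -29 to -25, within chr5:4104710-4104738 (-): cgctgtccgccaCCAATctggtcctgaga
Msmo1, bases -55 to -51, within chr8:64733617-64733645 (-): gagtggggcggaCCAATtacgacaggcga
Sc5d, bases -24 to -20, within chr9:42264308-42264336 (-): cgccggctgctgATTGGccggctgcctgc
Idi1, bases -14 to -10, within chr13:8885580-8885608 (+): gtccaaggtgccATTGGctggcgaccgac
A match describes these letters only, and whether a factor bound there was not measured.

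The sterol enzymes were most often lowest in the library labelled heart and most often highest in "brain". Of the 18 enzymes, 11 (61.1%) had their lowest RPKM in the library labelled heart, compared with 12.8% of all mRNAs tested. That 12.8% leaves out mRNAs tied at 0 reads with "brain" or "colon", since a tie counted only for the library listed first. The library labelled brain held the highest RPKM for 9 of the 18, compared with 16.8% of all mRNAs tested. Among these 9, Idi1, Nsdhl and Hsd17b7 did not differ from the next library beyond counting error, and Acat2 rested on 37 reads. No sterol enzyme was highest in the library labelled heart. Summed over the list, the enzymes took 0.256% of all CDS reads (0.253 to 0.259, Wilson) in the library labelled brain, 0.231% (0.227 to 0.236) in "colon", 0.165% (0.163 to 0.168) in "small intestine" and 0.137% (0.134 to 0.140) in "kidney". The share was 0.0925% (0.0904 to 0.0946) in "lung" and 0.0280% (0.0269 to 0.0292) in "heart". Without the 10 mRNAs with most reads in the totals, the share in "kidney" (0.218%) lay above that in "small intestine" (0.215%).

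Hmgcs1, on chr13:120151915-120170470 (GRCm39), condenses acetyl-CoA with acetoacetyl-CoA and was the most densely translated sterol enzyme in every library. Its RPKM was 1072 in the library labelled colon, 704 in "brain", 646 in "small intestine", 330 in "kidney", 195 in "lung" and 77.1 in "heart". All neighbours in this order differed beyond counting error, and the highest value was 13.9 times the lowest (13.0 to 14.9). Hmgcs1 made up 67.7% of the summed RPKM of the sterol enzymes in the library labelled colon and 26.0% in "lung", so that a sum over the list follows this gene closely. Cyp51, which removes a methyl group from lanosterol, came next in 5 libraries, and Hsd17b7 did so in "heart".

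The remaining mevalonate enzymes differed in which library held the most. Idi1, the isomerase of isopentenyl diphosphate, had 80.1 RPKM in the library labelled brain, 72.5 in "lung", 63.8 in "small intestine", 55.4 in "colon", 35.9 in "kidney" and 11.9 in "heart". From "brain" down to "colon", neighbours in this order did not differ beyond counting error, whereas "colon" and "kidney" did. The intervals of "brain" (74.3 to 86.1) and "colon" (48.2 to 63.4) did not overlap. Fdps, which makes farnesyl diphosphate, had 83.7 RPKM in the library labelled lung, 68.9 in "brain", 35.4 in "kidney", 35.2 in "colon", 21.9 in "heart" and 10.99 in "small intestine". It was the only sterol enzyme that was lowest in the library labelled small intestine. Mvk, the mevalonate kinase, varied least of the mevalonate enzymes, from 13.4 RPKM in the library labelled heart to 40.8 in "brain", a ratio of 3.04 (2.51 to 3.71).

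Pmvk, the next kinase, ran from 5.95 RPKM in the library labelled kidney to 35.0 in "lung" and was 19.1 in "heart", which was not among its lowest. Mvd, which decarboxylates the mevalonate product, had 18.8 RPKM in the library labelled colon, 8.16 in "small intestine", 6.56 in "lung", 3.40 in "kidney", 0.938 in "brain" and 0.914 in "heart". The lowest 2 rested on 12 and 9 reads and did not differ beyond counting error. Acat2, an acetoacetyl-CoA thiolase, had at most 37 reads in any library and 0 in "colon", where 3 reads would give 0.559 RPKM. Only 20.4% of its windows of 28 nt, a length of a ribosome footprint, are found in no other protein-coding mRNA, untranslated parts included, on either strand. Acat3 shares 926 of its 1164 windows, and multi-mapped reads were discarded. Acat2 fell below the minimum of 100 reads summed over the libraries that the other 29 members passed, and its values are therefore uncertain.

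Among the enzymes of the squalene and ring steps, several varied widely between libraries. Cyp51, on chr5:4123416-4154751 (GRCm39), had 446 RPKM in the library labelled brain, 245 in "colon", 232 in "kidney", 127 in "small intestine", 94.0 in "lung" and 12.9 in "heart". The library labelled heart lay apart from the rest, 34.7 times below the highest (29.6 to 40.8). Msmo1, a methyl sterol oxidase, had 207 RPKM in the library labelled brain, 68.1 in "kidney", 49.6 in "small intestine", 36.4 in "lung", 11.4 in "colon" and 5.28 in "heart". All neighbours in the order of Msmo1 differed beyond counting error, and the highest value was 3.04 times the next (2.74 to 3.37).

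Fdft1, the squalene synthase, and Sc5d, a sterol desaturase, shared with Msmo1 a high value in the library labelled brain and low values in "colon" and "heart". Fdft1 had 122 RPKM in the library labelled brain, between 42.2 and 55.6 in "small intestine", "lung" and "kidney", and 12.7 in each of "colon" and "heart". Sc5d had 117 RPKM in the library labelled brain, between 49.0 and 65.6 in "kidney", "small intestine" and "lung", 14.8 in "colon" and 14.2 in "heart". In both cases the libraries labelled colon and heart did not differ beyond counting error.

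Sqle, the squalene epoxidase, had 27.7 RPKM in "small intestine", 24.1 in "kidney", 8.603 in "brain", 4.07 in "lung", 3.23 in "colon" and 1.14 in "heart". The 2 highest did not differ beyond counting error. Lss, which closes the ring, lay between 7.32 and 18.0 RPKM in 5 libraries and was 1.11 in "heart", from 20 reads. Ebp, a sterol isomerase, had 56.0 RPKM in the library labelled colon, 35.4 in "kidney", between 15.0 and 20.0 in "small intestine", "lung" and "brain", and 2.13 in "heart". Ebp, Mvd and Hmgcs1 were the sterol enzymes with their highest value in the library labelled colon. Hsd17b7, a sterol ketoreductase, lay between 27.6 and 41.5 RPKM in 5 libraries, "heart" among them, and was 6.75 in "colon".

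The enzymes named next were absent or nearly so in some libraries and well covered in others. Tm7sf2, a sterol reductase, had 12.9 RPKM from 124 reads in the library labelled small intestine, 11.04 from 105 reads in "kidney" and 9.90 from 96 reads in "lung". It had 2 reads in the library labelled colon, 1 in "heart" and 0 in "brain", so the 6 libraries fell into a covered and an uncovered set. The highest value was 57.5 times the floor of 3 reads in the library labelled brain (0.225 RPKM). By counting error, the lower bound of its ratio to "brain" was 46.1. Lbr, which encodes the lamin B receptor and performs the same reduction, had 201 RPKM in the library labelled brain, 181 in "lung", 105 in "kidney", 76.8 in "heart", 51.4 in "colon" and 34.0 in "small intestine". The ratio of Lbr to Tm7sf2 was 2.63 (2.15 to 3.23) in the library labelled small intestine, 9.48 (7.78 to 11.7) in "kidney" and 18.3 (14.9 to 22.6) in "lung", so Lbr exceeded Tm7sf2 in every library.

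Dhcr7, on chr7:143376740-143402149 (GRCm39), performs a last step of cholesterol synthesis. It had 52.0 RPKM in the library labelled kidney, 38.9 in "small intestine", 15.6 in "brain", 7.02 in "colon" and 4.13 in "heart". In the library labelled lung it was not listed and had 0 reads, where 3 reads would give 0.273 RPKM. The value in "kidney" was 191 times this floor, and by counting error the lower bound of its ratio to "lung" was 155. Nsdhl, a sterol dehydrogenase, had 6.15 RPKM in the library labelled brain, 4.82 in "small intestine", 3.89 in "kidney", 1.91 in "heart", 1.02 in "colon" and 0.119, from 1 read, in "lung". The ratio of its highest to its lowest value was 51.6 (8.97 to 2067), which counting error leaves wide. Dhcr7 and Nsdhl were the 2 sterol enzymes lowest in the library labelled lung, while Pmvk, Fdps and Lss were highest there.

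**Figure D1:**
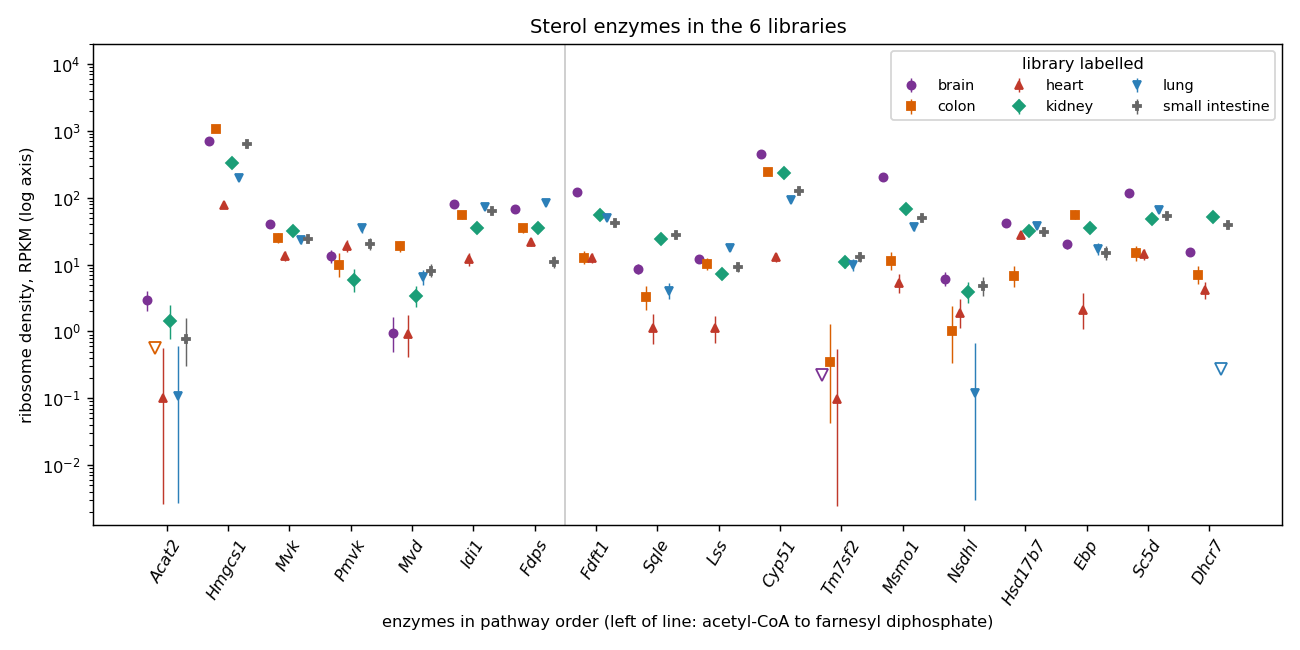
Ribosome density (RPKM, log axis) of the 18 sterol enzymes in pathway order, with 1 marker per library and 95% Poisson intervals of counting error, and an open triangle at the value of 3 reads where none were counted. Hmgcs1 was the highest enzyme in all 6 libraries, and the library labelled heart was the lowest for 11 of the 18 enzymes.

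For a comparison across enzymes, each library was set against the other 5 as the difference between its log2(RPKM + 1) and that of their median. A difference of at least 1 or at most -1, which is 2-fold on this scale and understates the change of mRNAs of low RPKM, was called higher or lower. The other 5 libraries are shared between these comparisons, so the 6 sets of calls are not independent. Of the 17 sterol enzymes tested, 12 were lower and 0 higher in the library labelled heart, where 21.3% of all 12558 mRNAs tested were lower and 18.7% higher. Their median log2 difference was -1.98, beside -0.06 over all mRNAs tested. In the library labelled colon, 8 were lower and 3 higher, beside 19.4% and 22.5% of all mRNAs tested, with a median of -0.87 beside 0.03. Those that were higher there were Hmgcs1, Mvd and Ebp, and all 8 that were lower act after farnesyl diphosphate.

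The library labelled brain had 7 sterol enzymes higher and 2 lower, beside 23.6% and 25.4% of all mRNAs tested, with a median of 0.92 beside -0.02. Msmo1 (2.48), Cyp51 (1.81) and Fdft1 (1.505) had the largest differences there, and Mvd and Tm7sf2 were the lower ones. Omitting Kri1 from the totals left 4 higher, beside 21.6% of all mRNAs tested, with Hmgcs1, Sc5d and Dhcr7 then under 2-fold. The counts were nearer to the background in the remaining libraries. In "kidney" 4 were higher (Sqle, Tm7sf2, Ebp and Dhcr7) and 1 lower (Pmvk), beside 18.0% and 18.3%. When Kri1 was left out of the totals, 7 were higher in "kidney", beside 22.8% of all mRNAs tested. The library labelled small intestine had 4 higher (Mvd, Sqle, Tm7sf2 and Dhcr7) and 1 lower (Fdps), beside 26.2% and 23.8%. That labelled lung had 3 higher (Pmvk, Fdps and Tm7sf2) and 4 lower (Hmgcs1, Cyp51, Nsdhl and Dhcr7), beside 32.1% and 19.2%. Its sterol median of 0.24 turned to -0.41 under median-of-ratios scaling, while the median over all mRNAs tested went from 0.32 to -0.07.

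**Figure D2:**
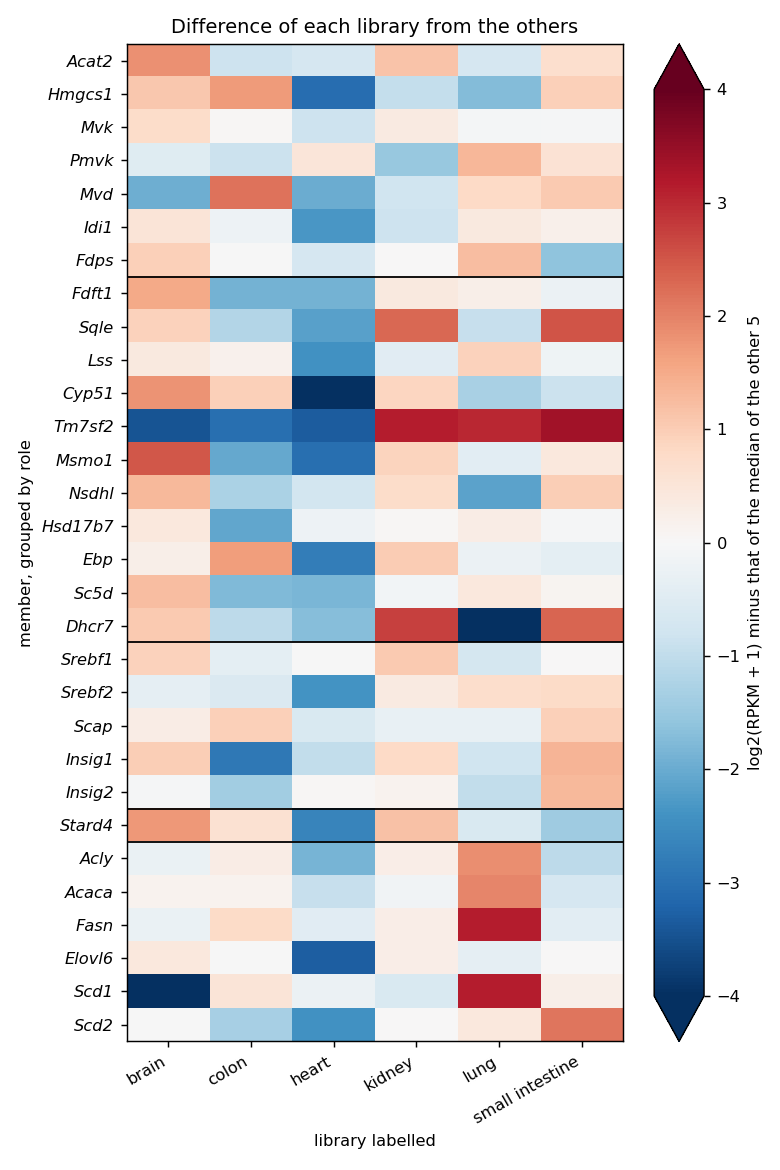
Difference of each library from the other 5 for all 30 members, as log2(RPKM + 1) in the library minus that of the median of the others, with rows grouped by role and columns by library label. In the library labelled heart 17 of the 29 members tested were at least 2-fold lower and 0 higher, beside 21.3% and 18.7% of all mRNAs tested.

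The order of libraries differed among the regulators. Srebf2 had 30.4 RPKM in "small intestine", 29.2 in "lung", 22.5 in "kidney", 17.5 in "brain", 14.6 in "colon" and 3.46 in "heart". The 2 highest did not differ beyond counting error, and the library labelled heart was 8.80 times below the highest (7.11 to 10.99). Srebf1 had 6.94 RPKM in the library labelled kidney, 6.22 in "brain", 2.88 in "small intestine", 2.80 in "heart", 1.96 in "colon" and 1.37, from 36 reads, in "lung". The row does not separate the forms of SREBP-1, since reads on the CDS were counted on 1 transcript per gene.

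Srebf2 exceeded Srebf1 in 5 libraries beyond counting error. The ratio of Srebf1 to Srebf2 was 0.810 (0.593 to 1.10) in the library labelled heart, 0.355 (0.303 to 0.414) in "brain", 0.308 (0.259 to 0.365) in "kidney", 0.134 (0.0884 to 0.197) in "colon", 0.0947 (0.0737 to 0.120) in "small intestine" and 0.0469 (0.0326 to 0.0655) in "lung". A ratio within a library does not depend on the total of reads. The lowest ratio was found in the library with the highest share of reads on fatty acid enzymes, and the highest in that with the lowest share.

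Scap, the escort of the SREBPs, had low density everywhere, from 1.5004 RPKM in the library labelled heart to 5.10 in "colon", a ratio of 3.40 (2.36 to 4.96). Insig2 exceeded Insig1 in every library. Insig2, on chr1:121181760-121260400 (GRCm39), had 73.8 RPKM in "small intestine", between 29.3 and 32.6 in "brain", "heart" and "kidney", 14.9 in "lung" and 10.9 in "colon". Insig1, itself a target of SREBPs, had 16.0 RPKM in "small intestine", 12.1 in "brain", 10.5 in "kidney", 5.66 in "lung", 4.88 in "heart" and 0.571, from 2 reads, in "colon". The ratio of Insig1 to Insig2 ran from 0.0527 (0.00612 to 0.206) in the library labelled colon to 0.414 (0.323 to 0.527) in "brain".

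Of the 5 regulators, both Insig mRNAs were called higher in the library labelled small intestine and lower in "colon", Srebf1 was higher in "kidney", and Srebf2 lower in "heart". Of all mRNAs tested, 26.2% were higher in the library labelled small intestine, 19.4% lower in "colon", 18.0% higher in "kidney" and 21.3% lower in "heart", so 1 of 5 regulators was about the background in the last 2. Stard4, which carries sterols between membranes, had 188 RPKM in the library labelled brain, 127 in "kidney", 84.6 in "colon", 55.6 in "lung", 31.1 in "small intestine" and 12.7 in "heart". All neighbours in the order of Stard4 differed beyond counting error.

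Of the 6 fatty acid synthesis enzymes, 4 had their highest RPKM in the library labelled lung, compared with 26.8% of all mRNAs tested. The 6 enzymes took 0.304% of all CDS reads there (0.300 to 0.308), 0.0871% (0.0850 to 0.0892) in the library labelled small intestine, 0.0722% (0.0698 to 0.0748) in "colon", 0.0678% (0.0660 to 0.0697) in "kidney", 0.0598% (0.0584 to 0.0613) in "brain" and 0.0302% (0.0291 to 0.0314) in "heart". Without Kri1 in the totals, the share in "kidney" (0.0870%) lay above that in "colon" (0.0775%). A share of reads rises with CDS length, and Fasn, with a CDS of 7512 bases, gave 14133 of the 23517 reads in "lung". Scaled for length, the summed RPKM of the 6 enzymes was 777 in "lung" and 583 in "small intestine", where Scd2 made up 79.7% of it. It was 81.6 to 270 in the others. In the library labelled lung 4 of the 6 (Acly, Acaca, Fasn and Scd1) were called higher and 0 lower, beside 32.1% and 19.2% of all mRNAs tested, with a median log2 difference of 1.90 beside 0.32. In "heart" 3 of the 6 were lower (Acly, Elovl6 and Scd2) and 0 higher, beside 21.3% and 18.7%, with a median of -1.39 beside -0.06. No fatty acid enzyme was called in the library labelled kidney, and in the other 3 libraries 1 at most was called in each direction.

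Fasn, on chr11:120696672-120715995 (GRCm39), encodes the fatty acid synthase that builds palmitate. It had 243 RPKM, from 14133 reads, in the library labelled lung, 45.4 in "colon", 32.0 in "kidney", 26.5 in "brain", 23.9 in "small intestine" and 23.1 in "heart". The library labelled lung was 5.36 times the next (5.08 to 5.65), while the other 5 lay between 23.1 and 45.4. Acly, which makes cytosolic acetyl-CoA from citrate, had 187 RPKM in the library labelled lung, 62.7 in "colon", 62.1 in "kidney", 51.0 in "brain", 29.3 in "small intestine" and 16.5 in "heart". Acaca, the acetyl-CoA carboxylase that commits acetyl-CoA to fatty acids, had 39.3 RPKM in the library labelled lung, between 9.48 and 10.5 in "kidney", "colon" and "brain", 6.25 in "small intestine" and 5.02 in "heart". All 3 enzymes that lead from citrate to palmitate therefore had their highest value in the library labelled lung and their lowest in "heart", although for Fasn "small intestine" and "heart" did not differ beyond counting error (ratio 1.03, 0.958 to 1.11).

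The density of Fasn relative to Hmgcs1 was 1.25 (1.19 to 1.30) in the library labelled lung and 0.300 (0.276 to 0.326) in "heart". It was 0.0969 (0.0916 to 0.102) in "kidney", 0.0424 (0.0401 to 0.0448) in "colon", 0.0377 (0.0360 to 0.0395) in "brain" and 0.0369 (0.0348 to 0.0391) in "small intestine". Fasn exceeded Hmgcs1 in the library labelled lung alone. Elovl6, which lengthens palmitate, did not share this pattern. Its RPKM was 54.8 in the library labelled brain, 49.1 in "kidney", 41.6 in "small intestine", 41.0 in "colon", 32.0 in "lung" and 3.36 in "heart".

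**Figure D3:**
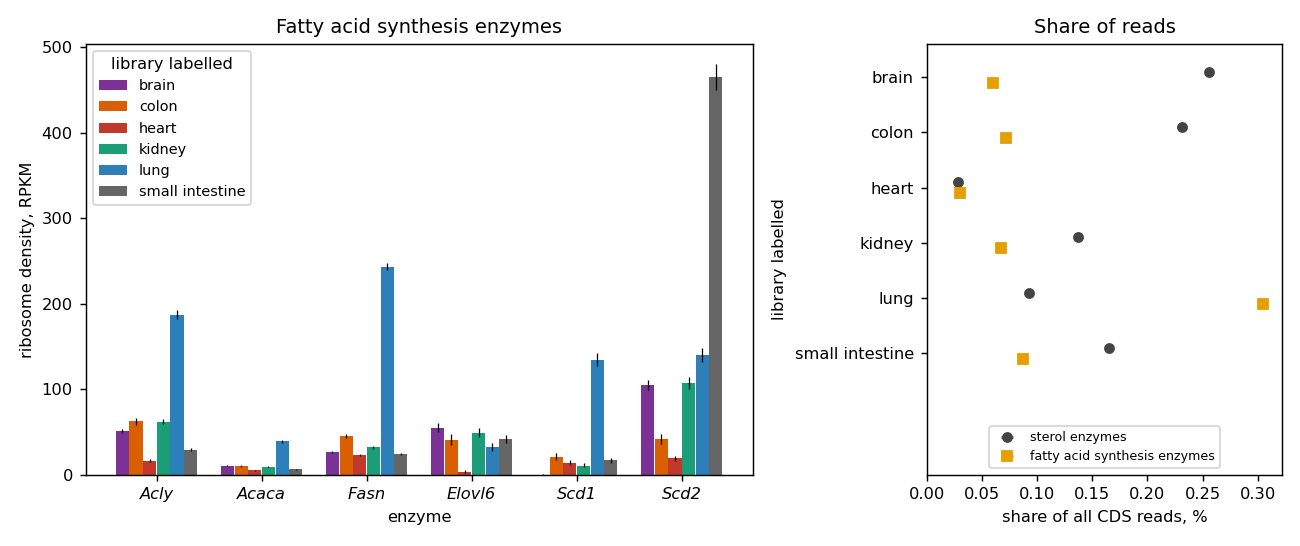
Left, ribosome density (RPKM) of the 6 fatty acid synthesis enzymes in each library, with 95% Poisson intervals of counting error. Right, share of all CDS reads on the sterol enzymes and on the fatty acid synthesis enzymes, with 95% Wilson intervals. The library labelled lung held 0.304% of reads on fatty acid enzymes and 0.0925% on sterol enzymes. In "heart" these shares were 0.0302% and 0.0280% with overlapping intervals, and in the other 4 libraries sterol enzymes took the larger share. A share of reads rises with CDS length, and the longest CDSs are those of Fasn (7512 bases) and Acaca (7035 bases). Scaled for length, the summed RPKM of fatty acid and sterol enzymes was 777 and 749 in "lung", and 81.6 and 228 in "heart".

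Scd1 and Scd2 are neighbouring genes on chromosome 19 that encode stearoyl-CoA desaturases, which place a double bond in saturated fatty acids. Their CDSs were identical at 90.3% of aligned bases, so the sharing of reads was examined before their values. Of 1011 aligned windows of 28 nt, 281 were identical, and reads from these would map to both genes and be discarded. Each gene shared more windows with Scd3, 311 for Scd1 and 292 for Scd2. Of the windows of Scd1, 59.6% are found in no other protein-coding mRNA on either strand, and 64.8% of those of Scd2. The windows shown differ at 1 base, in capitals, which was the median over the aligned windows. Both lie in exon 2 of 6 and are written 5′ to 3′ on the strand of the gene.
Scd1, CDS bases 175 to 202, chr19:44395022-44395049 (GRCm39, -): gagggAcccccgcccaagctggagtacg
Scd2, CDS bases 184 to 211, chr19:44283502-44283529 (GRCm39, +): gagggGcccccgcccaagctggagtacg
A read with errors could be given to the wrong one of the pair where windows differ by so little, and 2 mismatches were allowed. The values below are uncertain to that extent.

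Scd1 had 135 RPKM in the library labelled lung, 21.1 in "colon", 17.1 in "small intestine", 14.3 in "heart", 10.8 in "kidney" and 0.0883, from 1 read, in "brain". Scd2 had 465 RPKM in "small intestine", 140 in "lung", 106.9 in "kidney", 105 in "brain", 42.0 in "colon" and 19.2 in "heart". The library labelled small intestine was 3.31 times the next for Scd2 (3.10 to 3.54), and that labelled lung 6.40 times the next for Scd1 (5.22 to 7.92). Their ratio, Scd1 over Scd2, was 0.960 (0.883 to 1.04) in the library labelled lung, 0.746 (0.587 to 0.946) in "heart" and 0.502 (0.391 to 0.640) in "colon". It was 0.101 (0.0799 to 0.126) in "kidney", 0.0368 (0.0308 to 0.0435) in "small intestine" and 0.000842 (2.13e-05 to 0.00470) in "brain". With 1 read of Scd1 beside 1197 of Scd2, the library labelled brain had nearly no reads given to Scd1 while Scd2 was well covered, and the 6 ratios spanned about 3 orders of magnitude.

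**Figure D4:**
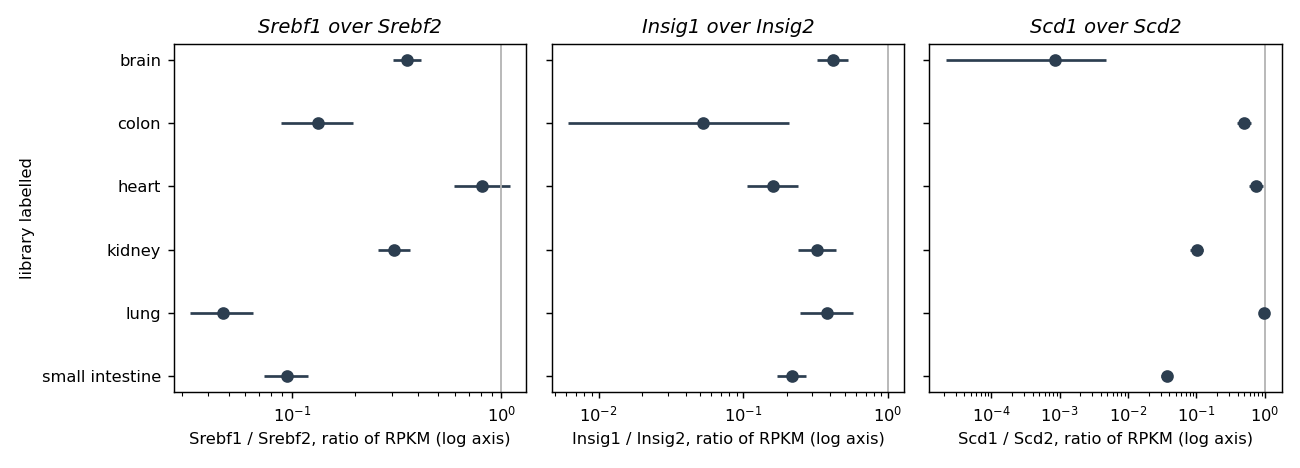
Ratio of RPKM between related members in each library (log axis), with 95% exact binomial intervals of counting error and a line at 1. Srebf1 was below Srebf2 beyond counting error in 5 libraries, Insig1 below Insig2 in all 6, and Scd1 over Scd2 ran from 0.000842 in the library labelled brain to 0.960 in "lung".

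Markers of cells rich in lipid synthesis were read beside these values. Of 6 adipocyte markers 4 were tested (Adipoq, Plin1, Cidec and Cfd), and these 4 were called higher in the library labelled lung, beside 32.1% of all mRNAs tested. The list summed there to 789 RPKM and to 8.98 to 664 in the others. Adipoq had 66.7 RPKM there and 0.353 to 28.2 in the others, whereas Cidec was higher in "brain" (634) than in "lung" (461). Retn had 0 reads in the library labelled lung, and Lep had 0 in every library. Alveolar type 2 cell markers, of cells that make surfactant lipids, summed to 40544 RPKM in the library labelled lung and to 30.5 to 222 in the others. Sftpc alone gave 39331.5 of that sum. Sftpb (304) and Lamp3 (777) were at most 6.59 and 4.36 outside "lung", whereas Abca3 had 132 RPKM in "lung" and 98.5 in "colon". Oligodendrocyte markers, of cells that make myelin, summed to 5350 RPKM in the library labelled small intestine, where Scd2 was highest, and to 12.1 to 46.0 in the others. The part of these cells in the values of the enzymes was not tested.

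Since the markers went with the label for heart and lung, these 2 libraries were also compared directly. Of the 17 sterol enzymes tested, 12 were at least 2-fold higher in the library labelled lung and 2, Nsdhl and Dhcr7, lower, beside 35.2% and 21.6% of all mRNAs tested. All 6 fatty acid enzymes were higher, and the ratio of "lung" to "heart" was 11.3 (10.3 to 12.5) for Acly, 10.5 (9.96 to 11.1) for Fasn and 7.83 (6.92 to 8.89) for Acaca. Among the sterol enzymes it was 16.2 (10.3 to 26.9) for Lss, 7.30 (6.18 to 8.68) for Cyp51 and 2.53 (2.35 to 2.73) for Hmgcs1. Srebf2 was 8.44 times higher (6.81 to 10.5), whereas Srebf1 was lower, at 0.489 times (0.320 to 0.734). These intervals hold counting error only, and the comparison was not rerun under another scaling. Median-of-ratios factors moved the log2(RPKM + 1) of all mRNAs tested by a median of -0.43 in "lung" and 0.14 in "heart". They would lower every ratio given here, so the count of 12 and ratios near 2-fold depend on the scaling.

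As a description over 6 libraries, with no test, the log2(RPKM + 1) of each sterol enzyme was set against the mean of the other sterol enzymes. The median Pearson r was 0.64 over the 17 enzymes, beside 0.04 over all mRNAs tested, and it ran from -0.30 for Pmvk to 0.89 for Mvk. Without the library labelled heart the median was 0.20, so most of the likeness lay in that library. Of the other members, Elovl6 (0.95), Srebf2 (0.89) and Scd2 (0.80) were closest to the mean of the sterol enzymes, while Fasn (0.06) and Scd1 (-0.28) were not close to it. This ranking rested on the library labelled heart. Without it r was 0.68 for Elovl6, 0.29 for Srebf2 and 0.57 for Scd2, and Insig1 (0.93), Insig2 (0.82) and Srebf1 (0.80) were closest. Outside the list, over the 6 libraries, Edem2 (0.99) and Sema5a (0.98) had the profiles most similar to it.

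Other genes of lipid metabolism were read as lists, whose calls stand against the shares of all mRNAs tested. These were 32.1% higher and 19.2% lower in the library labelled lung, 22.5% and 19.4% in "colon", 23.6% and 25.4% in "brain", 26.2% and 23.8% in "small intestine", 18.0% and 18.3% in "kidney", and 18.7% and 21.3% in "heart". Of the sterol step partners, which supply electrons or share steps with the sterol enzymes, 5 of 6 were tested and 4 (Lbr, Por, Cyb5a and Cyb5r3) were higher and 0 lower in the library labelled lung. The calls were 3 higher and 1 lower in "colon", 2 and 0 in "brain", 1 and 2 in "small intestine", 0 and 1 in "kidney", and 0 and 2 in "heart". Por, the reductase that supplies electrons to Cyp51, had 147 RPKM in the library labelled colon, 133 in "lung" and 16.3, its lowest, in "heart". Of 18 other lipogenic genes tested, 11 were higher and 2 lower in the library labelled colon, 8 and 4 in "lung", 6 and 6 in "heart", 5 and 5 in "brain", 5 and 8 in "small intestine", and 1 and 9 in "kidney". The counts of higher calls in "brain" and "small intestine" were near the background. Thrsp, a protein of lipogenic tissues, had 473 RPKM in the library labelled lung and 19.3 to 277 in the others. Acacb, the carboxylase whose product restrains fatty acid oxidation, had 53.3 RPKM in the library labelled heart and at most 7.65 in the others, whereas Acaca was at its lowest in that library. Dgat1, which completes triglycerides, reached 139 RPKM in "brain" and at most 6.97 elsewhere.

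Genes of sterol storage, export and oxidation, of which 13 of 14 were tested, had 6 higher and 3 lower calls in "small intestine", beside 26.2% and 23.8% of all mRNAs tested, and 5 and 2 in "brain", beside 23.6% and 25.4%. Npc1l1, the transporter of dietary cholesterol uptake, reached 142 RPKM in "brain" and at most 2.85 elsewhere. Soat2, which esterifies cholesterol, reached 36.8 RPKM in "brain" and at most 1.74 elsewhere. Cyp46a1, the hydroxylase of cholesterol in neurons, had 174 RPKM, from 1992 reads, in the library labelled small intestine and at most 10 reads in any other. In the remaining libraries the calls for this list were 3 higher and 1 lower in "colon", 3 and 0 in "lung", 1 and 3 in "kidney", and 0 and 2 in "heart".

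The genes that process and degrade SREBPs, all 8 of them tested, had 2 higher and 3 lower calls in "colon", 2 and 2 in "lung", 2 and 0 in "small intestine", 1 and 2 in "heart", and 1 and 1 in each of "brain" and "kidney". With 8 genes, 2 higher calls are near the share of all mRNAs tested in these libraries (22.5% in "colon", 32.1% in "lung" and 26.2% in "small intestine"). Rnf145, a ubiquitin ligase of the endoplasmic reticulum, had 24.1 RPKM in "small intestine", 21.2 in "lung", 13.3 in "kidney", 3.68 in "colon", 3.32 in "heart" and 0.142, from 3 reads, in "brain". Of 9 genes of the isoprenoid branches tested, which use products of the mevalonate steps, 2 were higher (Dhdds and Nus1) and 1 lower in "colon", where 22.5% of all mRNAs tested were higher, 1 higher and 0 lower in "brain", and 0 higher in the other libraries, with 3 lower in "kidney", 2 in "heart" and 1 in each of "lung" and "small intestine". Ggps1, the synthase of geranylgeranyl diphosphate, had 6.69 RPKM in "brain" and 0 reads in "kidney" and "lung".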

How the data were processed

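The files of the 6 mouse tissue libraries hold RPKM values as the authors deposited them, with 1 row for each protein-coding mRNA. Their methods, written for the macrophage libraries and taken to hold here, trim adapters with Cutadapt, discard reads under 15 nt, align to 1 transcript per gene, that of the longest CDS, with STAR (Ensembl GRCm39, release 107), exclude multi-mapped reads and those with over 2 mismatches, and count reads on CDSs. Versions of Cutadapt and STAR are not given in the sources used here. RPKM times CDS length gave whole reads (tolerance 0.01) for 100% of the values in each library.

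From these reads, exact Poisson intervals of RPKM, exact binomial intervals of ratios and Wilson intervals of shares were computed at 95%, and a count of 0 was set against 3 reads. Neighbouring libraries in an order were said to differ beyond counting error where the interval of their ratio left out 1. Differences used log2(RPKM + 1) against the median of the other 5 libraries. An mRNA was tested with at least 100 reads summed over libraries (12558 mRNAs, 29 members) and called at 2-fold. No p-value was computed, and "tested" means only that this minimum was passed.

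All 30 members are named, with genes of 5 pathway lists as counts and examples past 2-fold, 11 lists of tissue and cell markers, and the 3 mRNAs most like the sterol enzymes, of which 1 is not reported here. Of the marker lists, those of hepatocytes (13.2 to 1859 RPKM summed) and macrophages (14.2 to 41.2) are given here only. The highest hepatocyte sum, in the library labelled small intestine, came mostly from Ttr (1819 RPKM). In that library Alb had 40.0 RPKM and Serpina1a 0 reads, whereas Alb was highest in "kidney" (633). The members and lists were chosen with earlier results of these data known. Gene coordinates and CDSs come from GENCODE (GRCm39), where the CDS of Hmgcs1 has another length than the deposited row, and promoters from RefSeq (GRCm38.p6). The steps were tested on simulated data. Alternatives covered the scaling, pseudocount, reference, depth, filter, fold and CDS length. Leaving out a reference library and the direct comparison of "lung" with "heart" were added after seeing the data. The tools were Python 3.11.15 with pandas 2.3.3, numpy 2.4.6, matplotlib 3.10.9 and scipy 1.17.1.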

Additional observations from a re-analysis of the deposited data

How the results depend on the processing

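The sterol medians of "heart", "colon", "brain" and "kidney" and the fatty acid medians of "lung", "heart", "colon" and "small intestine" kept their sign under each alternative run. The sterol median of "lung" changed sign with median-of-ratios factors, and the sterol median of "small intestine" and the fatty acid medians of "brain" and "kidney" did so where a reference library was left out. Thinning to the lowest total and no filter on reads changed each count by at most 1, and no filter lowered the sterol median of "lung" to 0.078. The 18 ratios of related members held with reads in place of RPKM and with unique windows as length. Unique windows could move only Scd1 over Scd2, since 100% of the windows of the Srebf and Insig CDSs are unique. Reads in place of RPKM change a ratio only by the quotient of the CDS lengths. Values below are medians of log2 differences or counts of enzymes. The share of all mRNAs tested that was called also moved with the setting. It is given below for the scalings alone. The other counts, here and where a reference library was left out, show only how calls changed and were not set against a background. Without Kri1 in the totals, the sterol median was 0.76 ("brain") and 0.035 ("lung"), with 4 sterol enzymes higher in "brain" and 7 in "kidney", and the fatty acid median was -0.36 ("brain"), 0.43 ("kidney") and 1.81 ("lung"), with 0 lower in "small intestine". Of all mRNAs tested, 21.6% were then higher in "brain", 22.8% higher in "kidney" and 22.8% lower in "small intestine". Median-of-ratios factors moved the log2(RPKM + 1) of all mRNAs tested by a median of -0.43 in "lung" and at most 0.17 elsewhere. With these factors the sterol median was 0.65 ("kidney"), -0.41 ("lung") and 0.55 ("small intestine"), with 1 higher in "lung". The fatty acid median was then -1.13 ("heart"), 0.33 ("kidney"), 1.49 ("lung") and -0.056 ("small intestine"), with 1 lower in "lung" and 0 in "small intestine". With these factors 21.4% of all mRNAs tested were higher and 24.7% lower in "lung", and 20.2% were lower in "small intestine". A pseudocount of 0.1 gave a sterol median of -2.41 in "heart". With 5 it was 0.65 ("brain"), -0.56 ("colon") and -1.32 ("heart"), with 1 lower in "brain" and 5 in "colon", and the fatty acid median was -1.13 ("heart") and 1.70 ("lung"), with 0 lower in "small intestine". The mean as reference gave sterol medians of -0.49 ("colon"), 0.53 ("lung") and 0.50 ("small intestine"), fatty acid medians of -0.014 ("brain") and 2.18 ("lung"), 1 fatty acid enzyme higher in "brain" and 0 lower in "small intestine". A minimum of 500 reads left 0 sterol enzymes lower in "brain" and "kidney", 1 higher in "lung" and 2 in "small intestine", as fewer were tested. At 1.5-fold, sterol counts were 7 higher and 4 lower in "kidney", 5 higher in "lung" and 2 lower in "small intestine", and fatty acid counts 1 higher in "colon", 1 lower in "kidney" and 2 lower in "small intestine". At 3-fold, they were 2 higher in "brain", 5 lower in "colon", 0 lower in "kidney" and 1 higher in "lung", and 0 fatty acid enzymes lower in "colon" and "small intestine". The cause was not tested where the setting itself does not give it.

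Shares of reads kept "heart" lowest on both lists, "brain" highest on sterol enzymes and "lung" highest on fatty acid enzymes, but the order of "kidney" against "small intestine" (sterol) and against "colon" (fatty acid) turned. Those on sterol enzymes without Kri1 were 0.261% ("brain"), 0.248% ("colon"), 0.176% ("kidney") and 0.193% ("small intestine"), and without the 10 mRNAs with most reads 0.299% ("brain"), 0.289% ("colon"), 0.103% ("lung"), 0.0372% ("heart"), 0.218% ("kidney") and 0.215% ("small intestine"). The shares on fatty acid enzymes were 0.0775% ("colon"), 0.0870% ("kidney") and 0.101% ("small intestine") without Kri1, and 0.0698% ("brain"), 0.0905% ("colon"), 0.340% ("lung"), 0.0401% ("heart"), 0.108% ("kidney") and 0.113% ("small intestine") without those 10.

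Leaving out 1 reference library at a time, the sterol median ranged from 0.42 to 0.95 ("brain"), -0.91 to -0.44 ("colon"), 0.16 to 0.52 ("kidney"), -2.42 to -1.94 ("heart"), 0.036 to 0.34 ("lung") and -0.074 to 0.47 ("small intestine", below 0 without "colon" or "heart"). Sterol counts ranged from 5 to 8 lower ("colon", 5 without "small intestine"), 2 to 5 higher ("kidney", 2 without "heart"), 1 to 2 lower ("kidney") and 2 to 5 higher ("lung", 2 without "heart" and 5 without "small intestine"). The fatty acid median ranged from -0.26 to 0.27 ("brain", above 0 without "colon", "kidney" or "lung"), 0.10 to 0.50 ("colon"), -0.15 to 0.29 ("kidney", below 0 without "heart" or "small intestine"), 1.79 to 2.19 ("lung") and -0.39 to -0.12 ("small intestine"), with 0 to 1 lower in "small intestine". No paired analysis was possible because each label has 1 library. With 1 library per label, no difference here can be set against a spread between animals, and values from under 10 reads are bounded only loosely.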
